A study of Mus musculus with 6 samples.

Results

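The 10 genes described here encode enzymes that make sialic acid, attach it to cell surface glycans or build the branched and fucosylated glycans that selectins bind. They were chosen by gene symbol from 15964 genes named on the arrays, and all their probe sets, 23 in number, were taken. Expression was measured in CD8+ T cells grown from spleens and lymph nodes of female P14 mice on the C57Bl/6 background, whose transgenic T cell receptor recognises a viral peptide. Both kinds of cells were stimulated with that peptide for 2 days. Central memory (CM) cells were then kept in IL-15 for 7 days and sorted for a high level of a surface marker. Effector/effector memory (E/EM) cells were kept in IL-2 for 7 days and sorted for a low level of the same marker. Both kinds are products of culture, named by the submitters after memory and effector cells.

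Each kind of cell was hybridised once to each of 3 array types with different probe sets, SubA, SubB and SubC, giving 6 arrays and no replicates. No p-value can therefore be given, and each ratio describes a pair of arrays. Ratios are CM over E/EM signal on the log2 scale, so a value above 0 is a higher signal in CM cells. A signal counts as measured above the floor of its array type, the 90th percentile of bacterial control probe sets, at 31.28 for SubA, 88.12 for SubB and 194.34 for SubC. The SD given with a gene is a technical spread, taken over probe sets, and a gene is called higher or lower when its mean ratio is at least 2-fold. Of the T cell identity genes Cd8a, Cd8b1, Cd3d, Cd3e, Cd3g, Cd2, Thy1 and Cd5, all 8 were measured in both kinds of cells, and Cd8a had a signal of 5882.7 in CM cells and 5133.8 in E/EM cells. Their log2 ratios were not alike, with Cd5 highest at 1.13 and Cd3g lowest at -0.72. In a bulk sample, fewer cells that express a gene and less RNA per cell cannot be told apart.

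Sialic acids are acidic sugars that cap the glycans of cell surface proteins and lipids. The sugar is made in the cytosol from a precursor whose synthesis starts with the enzyme GNE, is activated to a CMP form, and is transferred in the Golgi by sialyltransferases that differ in the bond they make and the glycan they accept. In mouse CD8+ T cells, core 1 O-glycans on surface mucins can be capped by ST3GAL1 or branched to core 2 by GCNT1, and activation is known to shift this balance towards core 2. A core 2 branch that carries a sialylated and fucosylated end, made with FUT7, is a ligand for P-selectin and E-selectin, which capture T cells on vessel walls.

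Of the 10 enzymes, Cmah and St3gal6 were at least 2-fold higher in CM cells, and Gcnt1 and St3gal2 were at least 2-fold lower. Of all 10946 named genes with a ratio, 2.73% were at least 2-fold higher in CM cells and 5.61% at least 2-fold lower. By probe set, 5 of the 17 with a ratio passed 2-fold upwards in CM cells and 2 downwards, where 3.91% and 5.89% of all measured probe sets did. The other 6 enzymes lay within 2-fold. The median log2 ratio of the 10 was -0.23, against -0.0025 for all measured genes, with 4 above 0 and 6 below. The set was assembled with earlier results of these arrays known, including the ratios of Cmah, St3gal6 and Gcnt1, so these counts describe the set and support nothing about it.

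Of the 23 probe sets, 17 passed the floor on both arrays, 2 passed it in E/EM cells alone, and 4 lay at or under it on both. SubA held probe sets for all 10 genes, SubB for 5 and SubC for 5. Thus 5 genes were measured on 2 or more array types, while St3gal2, St3gal4, St6gal1, St8sia4 and Fut7 rest on 1.

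**Figure D1:**
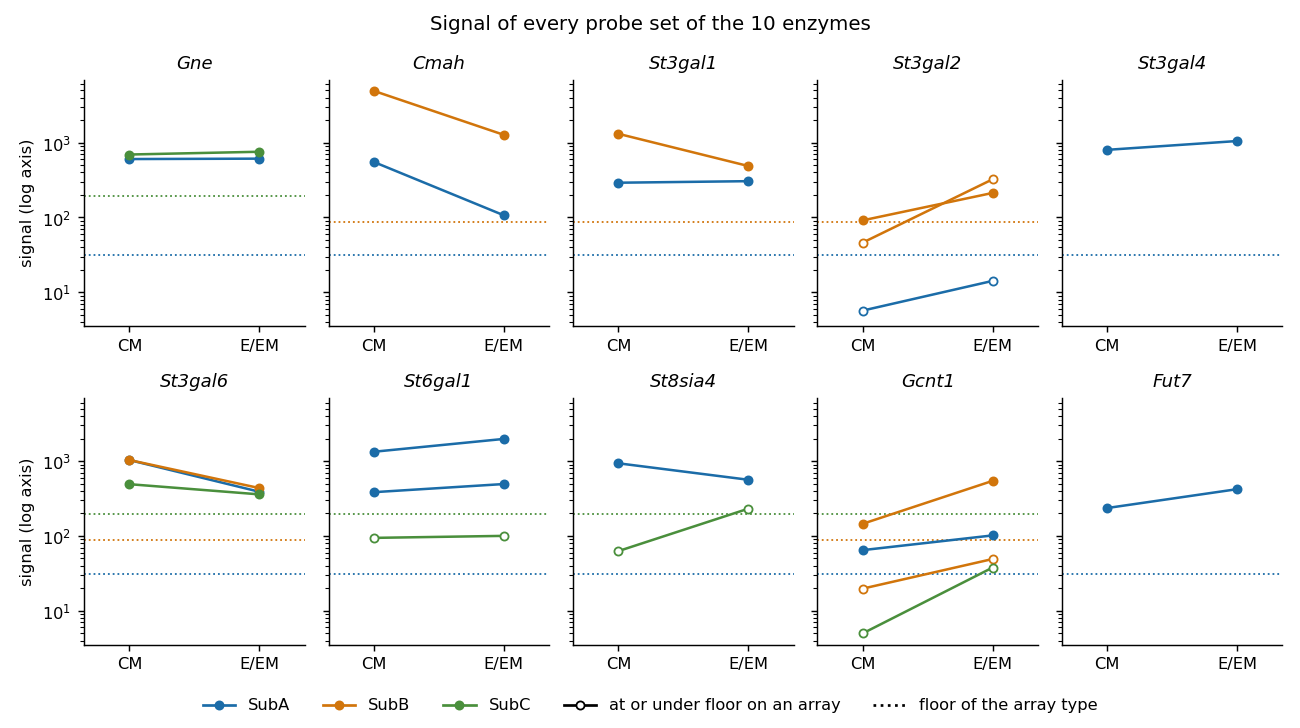
Signal of every probe set of the 10 enzymes in CM and E/EM cells (log axis), with lines joining the 2 arrays of a type, dotted lines at the floor of the array types that hold the gene, and open symbols for a probe set at or under the floor on at least 1 array. Both Cmah lines slope down to E/EM cells, and the lines of both Gcnt1 probe sets above the floor slope up.

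Gne, the first enzyme of sialic acid synthesis, hardly differed between the kinds of cells. Its SubA probe set had a signal of 603.5 in CM cells and 611.1 in E/EM cells, and its SubC probe set had 694.1 in CM cells and 755.6 in E/EM cells. The mean log2 ratio was -0.07 ± 0.07 (SD, 2 probe sets). The pair of probe sets differed from each other by 0.10.

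Cmah had the largest ratio of the 10 in size. It encodes the hydroxylase that turns the CMP form of N-acetylneuraminic acid into that of N-glycolylneuraminic acid, and so sets which sialic acid the transferases use. In mouse lymphocytes its lower expression upon activation is known to change which lectins bind the cell. Probe set 93688_at on SubA had a signal of 551 in CM cells and 107.1 in E/EM cells. Probe set 113261_at on SubB had 4911.7 in CM cells and 1273.5 in E/EM cells. The signals in CM cells were thus 5.14 and 3.86 times those in E/EM cells, on probe sets whose weaker signal was 3.42 and 14.5 times the floor. The mean log2 ratio was 2.16 ± 0.29 (SD, 2 probe sets), and 18 of the 10946 measured genes had a higher one. The spread between its probe sets was close to the middle of all genes with at least 2 measured probe sets, 45.8% of which had a smaller SD.

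RefSeq lists 2 transcription starts for Cmah on assembly GRCm38.p6, on chromosome 13, and the 250 bases before each are shown because this gene stood highest of the 10. Capitals mark matches, on either strand, to GGTGTGA (a T-box motif) in the first and to CCACCC (a KLF motif) in the second.
Cmah, chr13:24327154-24327403 (+ strand): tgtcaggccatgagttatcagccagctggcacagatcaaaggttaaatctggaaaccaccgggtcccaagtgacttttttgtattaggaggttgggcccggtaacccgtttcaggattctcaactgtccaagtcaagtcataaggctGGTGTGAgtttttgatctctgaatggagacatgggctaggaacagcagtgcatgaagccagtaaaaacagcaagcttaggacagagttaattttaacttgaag
Cmah, chr13:24414872-24415121 (+ strand): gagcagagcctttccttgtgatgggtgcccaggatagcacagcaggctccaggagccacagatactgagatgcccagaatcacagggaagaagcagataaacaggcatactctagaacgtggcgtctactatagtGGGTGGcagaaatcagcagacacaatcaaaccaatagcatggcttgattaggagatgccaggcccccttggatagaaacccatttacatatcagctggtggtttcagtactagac
Over all 32851 RefSeq promoter windows of 300 bases, 3.98% held the T-box letters, 31.5% the KLF letters, 8.3% the STAT letters TTCNNNGAA and 13.3% the ETS letters CAGGAAG. Neither Cmah window held the STAT or ETS letters. The first match began 103 bases before its start and the second 115 bases before its own. A match of letters is a description and not a binding site.

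Among the transferases that add sialic acid to galactose, St3gal6 was higher in CM cells and St3gal2 lower. St3gal6, which acts on galactose ends of the kind found in selectin ligands, was the one enzyme of the set measured on all 3 array types. Its signal on SubA was 1034 in CM cells and 390.1 in E/EM cells. Its signal on SubB was 1034.3 in CM cells and 436.8 in E/EM cells. On SubC it was 492 in CM cells and 359.8 in E/EM cells. All 3 probe sets were brighter in CM cells, by log2 ratios of 1.41, 1.24 and 0.45, and the mean was 1.03 ± 0.51 (SD, 3 probe sets). The SubC value, whose weaker signal was 1.85 times the floor, was the smallest, and without SubC the mean was 1.32. On the log2(signal + 50) scale without a floor it was 0.95, under 2-fold.

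St3gal2, which caps core 1 O-glycans and glycolipids, had 3 probe sets, all weak. Probe set 112105_at on SubB had a signal of 91.6 in CM cells and 212.7 in E/EM cells, a log2 ratio of -1.22. Probe set 163223_at on SubB had 46.2 in CM cells, under the floor, and 323.7 in E/EM cells, which puts it at least 3.67-fold lower in CM cells. The SubA probe set lay under the floor in both, with 5.7 in CM cells and 14.2 in E/EM cells. Both SubB probe sets were dimmer in CM cells, but the single ratio has a CM signal only 1.04 times the floor. In that range ratios of this size were common, since 12.7% of probe sets whose weaker signal was under 2 times the floor were at least 2-fold lower in CM cells, against 4.12% of brighter ones. Bounds of at least 2-fold in this direction were found for 2.66% of probe sets above the floor in at least 1 kind of cell. After quantile normalization the ratio was -0.94, under 2-fold, and with a doubled floor St3gal2 was not measured.

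St3gal1, the main enzyme that caps core 1 O-glycans in CD8+ T cells, gave different answers on the array types. Probe set 99847_at on SubA had a signal of 291.4 in CM cells and 305.6 in E/EM cells, a log2 ratio of -0.07. Probe set 115057_at on SubB had 1312.5 in CM cells and 487.7 in E/EM cells, a log2 ratio of 1.43. Both were well above the floor, with weaker signals 9.32 and 5.53 times it. The mean of 0.68 ± 1.06 (SD, 2 probe sets) therefore has no settled direction, and 96.7% of genes with at least 2 measured probe sets had a smaller SD. The SubB probe set alone was past 2-fold, and the SubA one was close to 0. Which transcript each probe set detects was not analysed here.

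St3gal4, a further enzyme of selectin ligand synthesis, was measured by 1 probe set on SubA, with a signal of 801.7 in CM cells and 1050.9 in E/EM cells. Its log2 ratio was -0.39, under 2-fold and opposite in sign to that of St3gal6. On SubA, 17.4% of measured probe sets had a lower ratio.

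**Figure D2:**
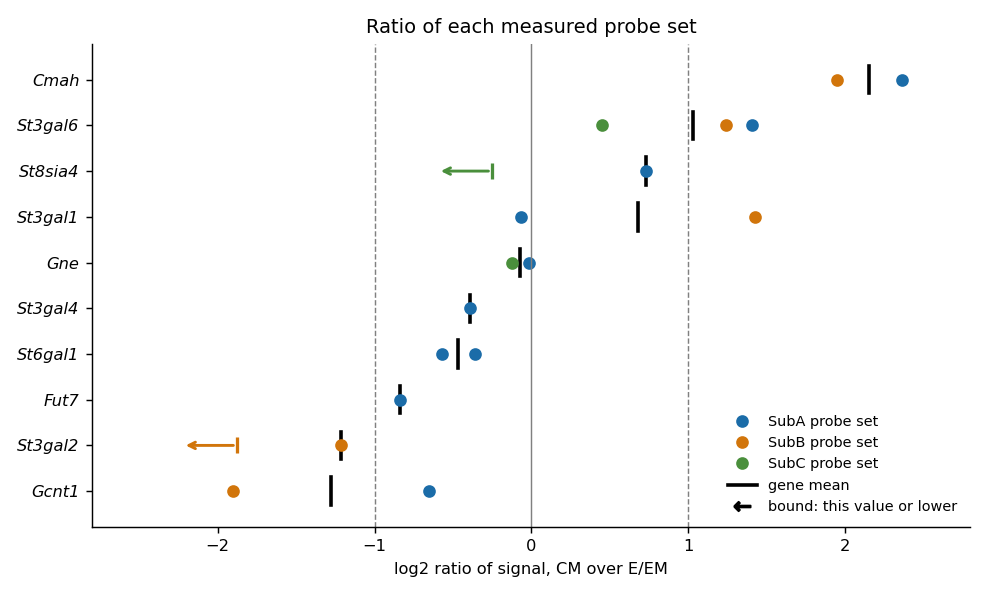
Log2 ratio (CM over E/EM) for each probe set that passed the floor on both arrays (points, coloured by array type), with the gene mean as a black bar and an arrow for a probe set above the floor in E/EM cells alone. Genes run from Cmah at 2.16 to Gcnt1 at -1.28, dashed lines mark 2-fold, and the points of St3gal1 lie 1.497 apart.

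St6gal1 makes the other main sialic acid bond of N-glycans, the form that the B cell lectin CD22 binds. Probe set 94432_at on SubA had a signal of 1335.7 in CM cells and 1981.3 in E/EM cells. Probe set 94431_at on SubA had 384.9 in CM cells and 494.3 in E/EM cells. Both were lower in CM cells, by less than 2-fold, and the mean log2 ratio was -0.46 ± 0.15 (SD, 2 probe sets). The SubC probe set was under the floor with 94.3 in CM cells and 100.3 in E/EM cells. B cells also express St6gal1, and their 8 marker probe sets on SubA (for Cd79a, Cd79b, Ms4a1, Pax5, Blk) summed to 615.5 in CM cells and 618 in E/EM cells. Of these, 5 passed the floor on both arrays and none was at 0. Cd79a, Ms4a1 and Pax5 had log2 ratios of -0.51, -0.47 and -0.32, and Cd79b and Blk had 0.39 and 0.41. Another Blk probe set on SubA went the other way. It had 3.5 in CM cells, under the floor, and 38.6 in E/EM cells, at least 1.23-fold lower in CM cells. The part of B cells in the ratio of St6gal1 was not tested.

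St8sia4 builds polysialic acid, a chain of sialic acids carried by few proteins. Probe set 102318_at on SubA had a signal of 935.7 in CM cells and 564.3 in E/EM cells, a log2 ratio of 0.73. Probe set 168063_at on SubC had 62.8 in CM cells, under the floor, and 231.2 in E/EM cells, and so was at least 1.19-fold lower in CM cells. The probe sets of St8sia4 point in opposite directions. With no floor, which brings in the SubC value, the mean was -0.58, so the sign of this gene rests on the floor.

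Gcnt1, the branching enzyme of core 2, was lower in CM cells on both probe sets above the floor. Probe set 112807_at on SubB had a signal of 145.7 in CM cells and 545 in E/EM cells, 3.74 times as much in E/EM cells. Probe set 92655_at on SubA had 64.7 in CM cells and 101.7 in E/EM cells. The log2 ratios were -1.90 and -0.65, with a mean of -1.28 ± 0.88 (SD, 2 probe sets), and 3.14% of measured genes had a lower one. The other 2 probe sets were under the floor in both kinds of cells, with 19.8 in CM cells and 49.2 in E/EM cells on SubB, and with 5 in CM cells and 37.8 in E/EM cells on SubC. The direction was shared but the size was not. The SubB ratio alone was past 2-fold, its CM signal was 1.65 times the floor, and SubA alone or a doubled floor gave -0.65.

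RefSeq lists 3 starts for Gcnt1 on GRCm38.p6, on chromosome 19, and the 250 bases before each are shown because this gene stood lowest of the 10. Capitals mark CCACCC (KLF) in all of them and CAGGAAG (ETS) in the first shown, on either strand.
Gcnt1, chr19:17339506-17339755 (- strand): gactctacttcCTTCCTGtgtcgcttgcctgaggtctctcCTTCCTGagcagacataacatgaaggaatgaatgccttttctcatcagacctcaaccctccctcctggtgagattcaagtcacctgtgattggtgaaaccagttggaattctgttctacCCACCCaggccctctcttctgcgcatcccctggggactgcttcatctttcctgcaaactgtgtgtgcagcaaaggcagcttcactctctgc
Gcnt1, chr19:17356668-17356917 (- strand): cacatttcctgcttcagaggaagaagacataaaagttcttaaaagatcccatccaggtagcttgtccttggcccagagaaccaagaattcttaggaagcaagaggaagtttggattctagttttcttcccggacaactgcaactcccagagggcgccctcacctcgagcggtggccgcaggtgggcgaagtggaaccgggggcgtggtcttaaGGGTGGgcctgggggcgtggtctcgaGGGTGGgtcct
Gcnt1, chr19:17372845-17373094 (- strand): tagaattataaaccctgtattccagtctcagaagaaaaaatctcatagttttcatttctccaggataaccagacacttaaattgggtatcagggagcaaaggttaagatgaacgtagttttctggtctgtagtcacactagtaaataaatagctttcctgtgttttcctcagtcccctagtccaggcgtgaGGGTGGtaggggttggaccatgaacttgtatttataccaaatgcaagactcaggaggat
The first window held 2 ETS matches and 1 KLF match, the second 2 KLF matches and the third 1. No Gcnt1 window held the STAT or T-box letters. The KLF letters were thus present upstream of the highest gene of the set and of the lowest, and they occur in 31.5% of all promoter windows. The table also held windows for Gne, St3gal4, St3gal6, St6gal1, St8sia4 and Fut7, none of which held the STAT or T-box letters. The KLF letters were also found in windows of St3gal6, St6gal1, St8sia4 and Fut7, and the ETS letters in a window of Gne.

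Fut7, the fucosyltransferase that completes the selectin-binding end, was measured by 1 SubA probe set marked by its name as shared. Its signal was 236.4 in CM cells and 422 in E/EM cells, a log2 ratio of -0.84, under 2-fold. On SubA, 5.72% of measured probe sets had a lower ratio. Fut7 and Gcnt1, the 2 enzymes of the set that act on branching and fucose rather than sialic acid, thus both had lower signals in CM cells.

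Markers of other blood cells went both ways across the lists, but all 4 measured macrophage and neutrophil genes lay below 0. Their median log2 ratio was -0.56, with Cd68 lowest at -1.16 and Csf1r closest to no difference at -0.06. The 13 macrophage and neutrophil marker probe sets on SubA, 5 of them above the floor on both arrays, summed to 474.5 in CM cells and 714.6 in E/EM cells, and 2 under the floor on SubC summed to 123 in CM cells and 97.3 in E/EM cells. Lyz1, Lyz2, Itgam, S100a8 and S100a9 were at or under the floor on all arrays. The 6 dendritic cell marker probe sets on SubA, 5 of them above the floor on both arrays, summed to 732.8 in CM cells and 1069.2 in E/EM cells, whereas 2 on SubC, 1 of them above the floor, summed to 441.9 in CM cells and 276.4 in E/EM cells. Within that list H2-Ab1 had a signal of 211 in CM cells and 516.5 in E/EM cells, while Itgax had 130.3 in CM cells and 43.1 in E/EM cells. The helper T cell marker Cd4 had 131.7 in CM cells and 49.3 in E/EM cells, and Zbtb7b, a factor of that lineage, was at least 9.74-fold lower in CM cells on SubB. The 3 erythroid marker probe sets summed to 245 in CM cells and 223.1 in E/EM cells. The part of such cells in the ratios of Gcnt1 and Fut7 was not tested.

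Of the enzymes measured on 2 or more array types, Cmah, St3gal1, St3gal6 and Gcnt1 were on SubA and SubB. Across the 1247 genes measured on both, the log2 ratios of the array types had a Pearson r of 0.46 and a Spearman rho of 0.40, and a median absolute difference of 0.35. The array types use different probe sets, the labels do not state whether they received the same RNA, and genes are not independent replicates. Cmah and St3gal6 differed between SubA and SubB by 0.42 and 0.16, whereas Gcnt1 and St3gal1 differed by 1.251 and 1.497.

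**Figure D3:**
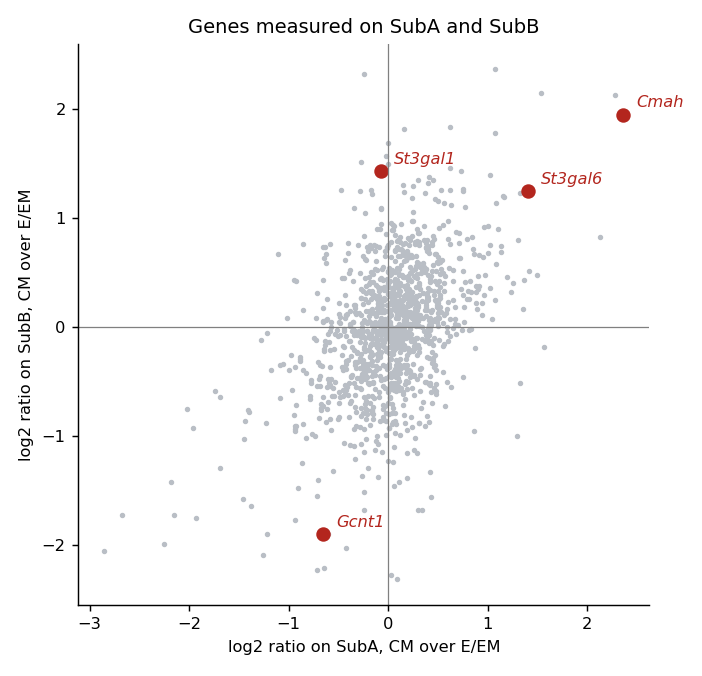
Log2 ratio (CM over E/EM) on SubA (x axis) and on SubB (y axis) for 1247 genes measured on both (grey), with 4 of the 10 enzymes in red. Cmah and St3gal6 lie at the upper right, Gcnt1 at the lower left and St3gal1 near 0 on SubA but at 1.43 on SubB.

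Other genes of glycan synthesis, and 7 glycoproteins that carry such glycans, were taken from lists by role. Of 78 such genes named on the arrays, 62 were measured in both kinds of cells. Of these, 2 were at least 2-fold higher in CM cells and 4 at least 2-fold lower, near the 2.73% and 5.61% of all genes. The median log2 ratio of the 62 was 0.02, with 32 above 0 and 30 below. Of the remaining 16, 10 passed the floor in CM or E/EM cells alone and 6 in neither.

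Over all measured genes, 2.73% were at least 2-fold higher in CM cells and 5.61% at least 2-fold lower. Of 7 measured genes that supply or remove sialic acid, none was past 2-fold. Cmas, which makes the CMP form that CMAH and the transferases use, had the largest ratio in size, -0.63 ± 0.56 (SD, 2 probe sets), with -0.24 on SubA and -1.03 on SubC. Of 5 measured transferases outside the set, St6galnac2, which adds sialic acid to the inner sugar of O-glycans, was at least 2-fold lower, with a signal of 60.2 in CM cells and 131.6 in E/EM cells and a log2 ratio of -1.13. This rests on 1 SubA probe set whose CM signal was under 2 times the floor of 31.28. In that range 12.7% of probe sets were at least 2-fold lower in CM cells, against 4.12% of brighter ones. St8sia2, the other polysialic acid enzyme, had 18.5 in CM cells, under the floor, and 97 in E/EM cells, at least 3.10-fold lower in CM cells. St8sia5 had bounds in opposite directions, at least 2.5-fold lower on SubA and at least 1.57-fold higher on SubC. St6galnac4 was brighter in CM cells on all its probe sets, with a mean log2 ratio of 0.50 ± 0.24 (SD, 3 probe sets). A further SubC probe set, marked by its name as shared, had 791.6 in CM cells and 189.5 in E/EM cells. The E/EM signal was just under the floor, so this probe set was at least 4.07-fold higher in CM cells.

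Among the fucose genes, Fut4 and Fut8 were lower in CM cells. Of 10 measured genes of fucose and sulfate addition, 2 were at least 2-fold lower in CM cells and 0 higher. Over all measured genes, 5.61% were at least 2-fold lower and 2.73% higher. Of the 10, 6 lay below 0 and 4 above, and their median log2 ratio was -0.30. Fut4, the other fucosyltransferase of leukocyte selectin ligands in mice, had a SubB signal of 261.1 in CM cells and 1221.7 in E/EM cells, and a SubA signal of 59.9 in CM cells and 98.3 in E/EM cells. As for Gcnt1, both probe sets were dimmer in CM cells and SubB alone was past 2-fold, with ratios of -2.23 and -0.71 and a mean of -1.47 ± 1.07 (SD, 2 probe sets). Fut8, which adds the core fucose of N-glycans, had 469.8 in CM cells and 961.1 in E/EM cells, a log2 ratio of -1.03. Slc35c1, the transporter of activated fucose into the Golgi, had 0.12 ± 0.30 (SD, 2 probe sets). Fcsk, a further gene of the list, had a mean log2 ratio of -0.37 ± 0.45 (SD, 2 probe sets). Another Fcsk probe set on SubC had 121.1 in CM cells, under the floor, and 643.9 in E/EM cells, at least 3.31-fold lower in CM cells.

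Of 22 measured genes of O-glycan cores and chain extension, 2 were at least 2-fold higher in CM cells and 1 at least 2-fold lower. The shares over all measured genes were 2.73% and 5.61%. The median log2 ratio of the 22 was 0.02. Gcnt2, which branches the lactosamine chains that carry such ends, had the lowest ratio of all the listed genes. Its SubA signal was 43.6 in CM cells and 161.4 in E/EM cells, and its SubC signal was 417.5 in CM cells and 1823.8 in E/EM cells. The mean log2 ratio of Gcnt2 was -2.01 ± 0.17 (SD, 2 probe sets), with probe sets that differed little. However, the SubA signal in CM cells was close to the floor of 31.28, and the SubC probe set is marked by its name as shared. Of the Gcnt2 probe sets, 1 more was under the floor in both kinds of cells. B4galt4, a galactosyltransferase, was higher in CM cells on SubB and on a SubC probe set likewise marked as shared, with a mean log2 ratio of 1.54 ± 0.26 (SD, 2 probe sets). B3gnt5, which extends glycolipid chains, had a signal of 942.8 in CM cells and 368.3 in E/EM cells, a log2 ratio of 1.36. C1galt1, the core 1 synthase whose product both ST3GAL1 and GCNT1 use, had 0.02 ± 0.36 (SD, 2 probe sets). None of 11 measured genes of N-glycan branching was past 2-fold, and Slc35a2, the carrier of activated galactose, had the largest ratio in size at -0.85.

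Transcripts of the proteins that carry these glycans had mean ratios within 2-fold. Selplg, which encodes the P-selectin ligand PSGL-1, had a signal of 11066.6 in CM cells and 10588 in E/EM cells, a log2 ratio of 0.06. Spn (CD43), the mucin that carries core 2 glycans on activated CD8+ T cells, had -0.13 ± 0.62 (SD, 3 probe sets). Ptprc (CD45) had 0.53 ± 0.29 (SD, 2 probe sets) and Cd44 -0.31 ± 0.27 (SD, 3 probe sets). None of the 7 carriers was past 2-fold, a size that 2.73% of all measured genes reached upwards and 5.61% downwards. The Spn probe sets spanned 0, from -0.77 on SubC to 0.46 on SubA.

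**Figure D4:**
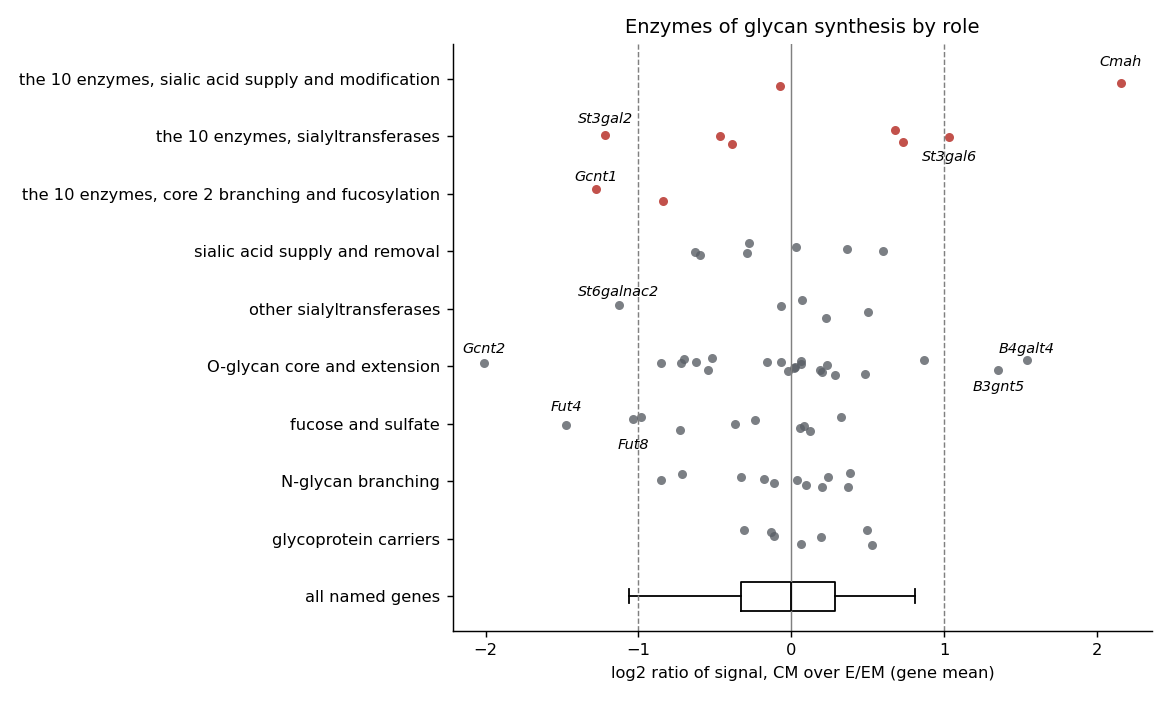
Mean log2 ratio (CM over E/EM) for the 10 enzymes (red, top rows) and for other genes of glycan synthesis and glycoprotein carriers by role (grey), with genes past 2-fold named. The bottom box gives all 10946 measured genes (median, quartiles, and whiskers from the 5th to the 95th percentile), and dashed lines mark 2-fold.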

How the data were processed

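Total RNA of CM and E/EM cells was measured on 1 array per kind of cell and array type, and samples were grouped by their titles. The authors deposited a table of linear intensities per array type. No source used here says how they were computed. The mean of each array, without its lowest and highest 2%, lay between 500.1 and 500.3, so no further normalization was applied. Symbols are those of GEO's annotation of the platforms, and Entrez identifiers matched those of 29110 probe sets in a RefSeq table (GRCm38.p6), which changed 0. Only probe sets with 1 symbol were assigned to a gene.

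For each array type, the 90th percentile over 15 bacterial control probe sets was taken on each array and the larger served as floor, and control probe sets were then left out. It was passed by 47.1% to 69.1% of probe sets on an array, fewest on SubC. A gene's value is the mean log2 ratio of its probe sets above the floor on both arrays. A probe set above it on 1 array gives the brighter signal over the floor as a bound. The text names all 10 enzymes, the carriers Selplg, Spn, Ptprc and Cd44, list genes past 2-fold by mean ratio or by a bound, and the largest ratio of each list. Slc35c1, C1galt1 and the genes under other observations were named after their values were seen. The enzymes and lists were chosen with earlier results of these data known. The number of arrays limits the precision. Calculations (Python 3.11.15, pandas 2.3.3, numpy 2.4.6) were tested on simulated data. The alternatives were other floors or none, a pseudocount of 50, quantile normalization, median centring, the brightest probe set, no probe sets marked as shared, fewer array types and a 3-fold rule.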

Additional observations from a re-analysis of the deposited data

How the results depend on the processing

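The log2 ratio of Cmah stayed between 1.92 and 2.36 over 11 alternatives. Gcnt1 lay between -1.90 and -0.65 over the 10 alternatives that measured it, and St3gal2 between -2.01 and -0.94 over 8. Where these genes were measured, direction thus held and size did not. St3gal1 was -0.07 on SubA alone and 1.43 for its brightest probe set. St8sia4 was -0.58 with no floor and -0.32 with a pseudocount of 50 and no floor, settings that add its SubC probe set. Of the 10 enzymes, the number at least 2-fold higher in CM cells, 2, became 1 with the pseudocount of 50, 1 under the 3-fold rule and 3 with the brightest probe set, where St3gal1 passes. Over all genes, 2.57% were at least 2-fold higher with the pseudocount and 3.91% with the brightest probe set. The 3-fold rule was passed upwards by 0.56% and downwards by 1.54%. The number at least 2-fold lower, 2, became 0 with the floor doubled, 0 with a 60th-percentile floor, 0 on SubA alone, 0 under the 3-fold rule, 1 with the pseudocount and 1 after quantile normalization. The shares of all genes at least 2-fold lower were 4.12% with the floor doubled, 3.44% at the 60th percentile and 4.35% on SubA alone. They were 4.30% with the pseudocount and 4.98% after quantile normalization. Fewer of the 10 were measured with the floor doubled (9), at the 60th percentile (7), on SubA alone (9) and without probe sets marked as shared (9), which leaves out Fut7. The 60th-percentile floor left out Gcnt1, St3gal2 and Fut7. The doubled floor and SubA alone left out St3gal2. Of the other listed genes, the 2 at least 2-fold higher became 1 with the 60th-percentile floor, 7 with no floor, 0 on SubA alone and 0 under the 3-fold rule, and the 4 lower became 7 with the floor halved, 2 at the 60th percentile, 11 with no floor and 1 under the 3-fold rule. With no floor, 8.52% of all genes were at least 2-fold higher and 13.7% lower. With the floor halved, 7.63% were at least 2-fold lower. The share at least 2-fold higher was 2.32% at the 60th percentile and 2.09% on SubA alone. No paired analysis was possible because each array type had 1 array per kind of cell. The weak signals of St3gal2 and Gcnt1 in CM cells, close to the floor, limit the size of their ratios.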

Other observations

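Several other listed genes had probe sets that disagreed, among them Galnt10, Mgat4a, Neu1, Mgat5 and St8sia1. Over all genes with at least 2 measured probe sets, 48.5% had probe sets of opposite sign. The probe sets of Gmds and Chst2 above the floor shared a direction. Galnt10, which starts O-glycans, had log2 ratios (CM over E/EM) of 0.76 on SubA and of 1.004 and -0.92 on SubB, around a mean of 0.28. Mgat4a, an N-glycan branching enzyme, had probe sets at 0.84 and -0.76. Neu1, the lysosomal sialidase, had -0.28 on SubA, while its SubB probe set had a signal of 113.5 in CM cells and 41.8 in E/EM cells, under the floor, and so was at least 1.29-fold higher in CM cells. Gmds, which begins the synthesis of activated fucose, had a signal of 764.4 in CM cells and 1510 in E/EM cells and a log2 ratio of -0.98, and its other SubB probe set was at least 1.17-fold lower in CM cells. Chst2, a sulfotransferase of selectin ligands, was above the floor in CM cells alone on both its brighter probe sets. It was at least 1.84-fold higher in CM cells on SubA and at least 1.09-fold higher on SubB. Its other 2 probe sets were under the floor in both kinds of cells.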
